A study of Homo sapiens with 2 samples.

Results

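The acute-phase response genes followed in human PLC liver cancer cells were 10 in number: CRP, SAA1, SAA2, SAA4, HP, HPX, ORM1, ORM2, CP and LBP. They were taken as a fixed list of gene names, and all 10 were found in both deposited tables, at 9 loci among the 24991 names that both libraries hold. The EV library came from PLC cells infected with a lentivirus made from the empty pCDH vector, and the PRSS35 library from PLC cells infected with the same vector carrying the human PRSS35 coding sequence. Both are described as stable cells selected with puromycin, in DMEM with 10% FBS, and the labels give no treatment. Whether serum was present when RNA was taken, and whether the cells are a pool or a clone, is not given in the sources used here. With 1 library per condition, no difference could be checked against replicates, and p-values are not printed. Values are FPKM, the fragments assigned to a locus normalized for transcript length and library size, each with the interval that Cufflinks puts around each value. The interval reflects the counting and assignment of fragments in 1 library, and variation between cultures is not part of it. Positions are on hg19.

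The acute-phase response is the change in plasma protein output by which the liver answers infection and tissue injury. Interleukin-6, acting through JAK kinases and STAT3, and interleukin-1, acting through NF-kB, drive it in hepatocytes together with factors of the C/EBP family. CRP and the inducible serum amyloid A proteins SAA1 and SAA2 are the classical strong responders, whereas SAA4 is made constitutively. HP binds free hemoglobin and HPX binds free heme, CP carries copper and oxidizes iron, the orosomucoids ORM1 and ORM2 bind drugs and lipids, and LBP presents bacterial lipopolysaccharide to CD14.

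Several members are near copies of each other, and the extent of this bears on how their reads can be assigned. In the first-numbered GENCODE transcript of each gene, the spliced coding sequences of SAA1 (plus strand) and SAA2 (minus strand), of 366 bases each without the stop codon, are identical at 97.0% of positions. SAA4 (minus strand) is more distant, with 70.0% identity to SAA1 over the first 150 bases. These bases, from chromosome 11 of GRCh37, are shown because they hold 1 difference between SAA1 and SAA2, so that few reads from here can tell the genes apart. Capitals mark bases that differ from SAA2 in the SAA1 line, and from SAA1 in the SAA2 and SAA4 lines.
SAA1: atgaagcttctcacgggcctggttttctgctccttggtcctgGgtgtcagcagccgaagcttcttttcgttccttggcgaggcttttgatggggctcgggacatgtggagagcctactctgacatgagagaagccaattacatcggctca
SAA2: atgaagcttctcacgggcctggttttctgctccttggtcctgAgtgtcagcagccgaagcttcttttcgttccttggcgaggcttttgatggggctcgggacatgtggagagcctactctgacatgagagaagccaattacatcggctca
SAA4: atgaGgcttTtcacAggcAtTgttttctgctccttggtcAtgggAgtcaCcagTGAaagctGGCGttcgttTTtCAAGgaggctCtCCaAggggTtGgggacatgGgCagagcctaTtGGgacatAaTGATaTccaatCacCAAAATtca

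ORM1 and ORM2, both on the plus strand of chromosome 9, share 94.9% of 603 coding bases, and their first 206 coding bases are identical. The genes can be separated over coding bases 256 to 405, where 25 of the 31 differences lie, marked in capitals.
ORM1: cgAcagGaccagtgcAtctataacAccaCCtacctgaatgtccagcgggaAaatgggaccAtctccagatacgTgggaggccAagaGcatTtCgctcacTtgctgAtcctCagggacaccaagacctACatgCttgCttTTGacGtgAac
ORM2: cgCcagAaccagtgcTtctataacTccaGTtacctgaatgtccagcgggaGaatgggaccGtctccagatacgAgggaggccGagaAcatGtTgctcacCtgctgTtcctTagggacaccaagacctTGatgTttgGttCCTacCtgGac

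Over all 50-base stretches of the annotated transcripts, 43.8% of those of ORM1 and 50.1% of those of ORM2 also occur in another gene, in each case the other orosomucoid. The share was 34.2% for SAA1, all of it found in SAA2, and 20.4% for SAA2. It was 74.0% for SAA4, which shares these stretches with the SAA2-SAA4 readthrough gene. HP had 12.4%, most of it in common with its neighbour HPR, and CP had 3.48%, found in the pseudogene CPP. No such stretch was found for CRP, HPX or LBP. The values of the SAA and ORM genes therefore rest partly on how the authors' Cufflinks run divided reads, and are uncertain for the single genes.

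As a check of the labels, PRSS35 had an FPKM of 0.643 in EV and 1836 in PRSS35. Of 9 hepatocyte markers, 8 were expressed, meaning that FPKM averaged at least 1 across EV and PRSS35, including APOA1 at 576.2 and 493.6 FPKM. Albumin was low, at 4.05 and 5.21 FPKM. Of 7 leukocyte markers, 4 (PTPRC, CD163, MS4A1 and CD3E) are listed at 0 in both libraries, whereas LYZ had 94.0 and 103.7 FPKM and the joined locus of CD68 and MPDU1 had 297.3 and 277.9. The summed leukocyte list was 391.3 FPKM in EV and 381.6 in PRSS35. Most of this sum is the joined locus, whose value cannot be divided between CD68 and MPDU1, and nearly all the rest is LYZ. Of 6 markers of stroma and endothelium, only PDGFRB was expressed, at 1.02 and 1.27 FPKM. The part of such markers in the results was not tested.

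Of the 10 genes, 6 were expressed, at 5 loci. CRP, SAA1 and HP, 3 genes in all, are listed at 0 in both libraries, and LBP lay under the limit in both. The highest value belonged to the serum amyloid A locus, followed by ORM1, CP, ORM2 and HPX. With ORM1 and ORM2 taken singly, this order was the same in EV and PRSS35. Within each library the intervals of neighbours in the order did not overlap. The serum amyloid A locus, itself a joined row, was 1.76 times the summed ORM1 and ORM2 in EV and 0.970 times in PRSS35. In EV these 5 loci ranked between 2312 and 7121 among 25332 named loci, so none was among the most abundant transcripts of the line.

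**Figure D1:**
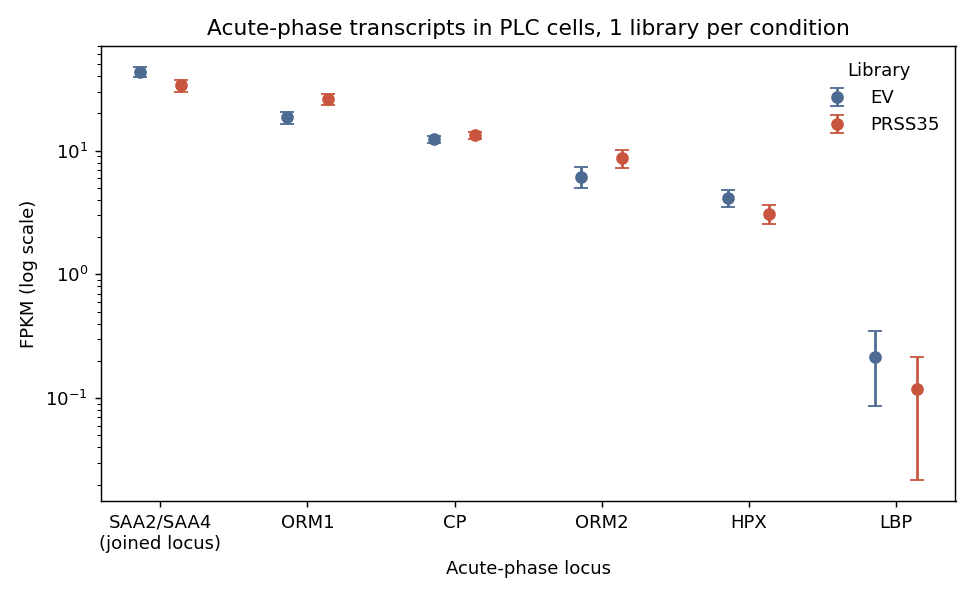
FPKM on a log axis of the 6 acute-phase loci above 0 in the EV and PRSS35 libraries, with bars for the Cufflinks interval (1 library per condition). ORM1 was higher in PRSS35 and the joined SAA2/SAA4 locus lower with intervals apart, and for the other 4 loci the intervals overlap. With FPKM rescaled to an equal total in both libraries SAA2/SAA4 would be higher in PRSS35, though below the median change of all expressed names.

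Serum amyloid A transcripts came from a single row of the tables. SAA2, SAA4 and SAA2-SAA4 were joined by Cufflinks into 1 assembled locus in both libraries, on chromosome 11 from 18252902 to 18270221, so its value cannot be divided among the inducible SAA2 and the constitutive SAA4. The joined locus was measured at 43.5 FPKM (interval 39.2 to 47.7) in EV and at 33.6 (interval 29.9 to 37.2) in PRSS35. It was thus lower in PRSS35, at 0.773 of the EV value, with intervals that did not overlap and a log2 change of -0.36, although with FPKM rescaled to an equal total in both libraries the change was 0.33. Log2 changes here and below were computed with 1 FPKM added to both values. The rescaling also moved the median change of all expressed names, from 0.06 to 0.69, and SAA2/SAA4 lay below that median in both cases. If counting error alone set them, the interval widths would correspond to about 425.1 fragments in EV and 340.3 in PRSS35. SAA1, which lies on the opposite strand of the same chromosome from 18287808 to 18291523, is listed at 0 in both libraries, as is the pseudogene SAA3P. For SAA1 the listing at 0 has to be read beside the stretches it shares with SAA2, as fragments from them can be assigned to either gene.

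The orosomucoids, which lie side by side on chromosome 9, were both higher in PRSS35. ORM1 (117085303 to 117088759) was measured at 18.6 FPKM (interval 16.5 to 20.6) in EV and at 25.9 (interval 23.2 to 28.6) in PRSS35, a ratio of 1.40 and a log2 change of 0.46. ORM2 (117092069 to 117095536) had 6.13 (interval 4.96 to 7.31) in EV and 8.71 (interval 7.25 to 10.2) in PRSS35, a ratio of 1.42 and a log2 change of 0.44. The intervals of ORM1 were apart, while those of ORM2 overlapped narrowly. As counting error alone, the widths correspond to about 322.5 fragments in EV and 375.6 in PRSS35 for ORM1. For ORM2 they correspond to 109.0 and 142.2. At both genes this rise was smaller than that in FPKM. Their sum would not depend on how shared reads were divided if both copies were scaled by the same length. The first-numbered transcripts have 764 and 759 bases, and whether the sum is free of this division was not tested. The sum was 24.7 FPKM in EV and 34.6 in PRSS35, a ratio of 1.40, or 2.29 with FPKM rescaled to an equal total in both libraries. That rescaling also moved the median log2 change of all expressed names, from 0.06 to 0.69. Adding the lower and the upper bounds of both genes gave 21.5 to 27.9 in EV and 30.5 to 38.7 in PRSS35, ranges that did not overlap. ORM1 made up 75.2% of this sum in EV and 74.8% in PRSS35.

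CP, the copper-carrying ferroxidase, had similar deposited values in both libraries. On chromosome 3 from 148880197 to 148939832, it was measured at 12.4 FPKM (interval 11.6 to 13.1) in EV and at 13.3 (interval 12.5 to 14.1) in PRSS35. The log2 change was 0.10 with overlapping intervals. With FPKM rescaled to an equal total it became 0.77, near the median of all expressed names, then 0.69. Read as counting error alone, the interval widths of CP correspond to about 1094 and 1020 fragments, the largest such values of any expressed member. Of all expressed names, 69.2% had a log2 change at least as large in size as 0.10 in the deposited values.

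The heme scavenger HPX was low and the hemoglobin scavenger HP is listed at 0. HPX, on chromosome 11 from 6452268 to 6462254, had 4.16 FPKM (interval 3.52 to 4.79) in EV and 3.09 (interval 2.55 to 3.63) in PRSS35. The log2 change was -0.33 with overlapping intervals. With FPKM rescaled to an equal total it became 0.23, below the median of all expressed names, then 0.69. HP, on chromosome 16 from 72088508 to 72094955, and its copy HPR next to it are both listed at 0 in EV and in PRSS35. The next gene in that direction, TXNL4B, which encodes a splicing-related protein, is listed at 0 in both libraries as well. On the outer sides, DHODH had 7.66 FPKM in EV and 8.86 in PRSS35, and DHX38, which overlaps the end of the TXNL4B locus, had 29.5 and 31.9 (interval 7.33 to 56.4 in PRSS35). These neighbours were chosen after their values had been seen. Of all names in both libraries, 38.0% are listed at 0 in both, and such a listing does not by itself show that a transcript is absent.

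**Figure D2:**
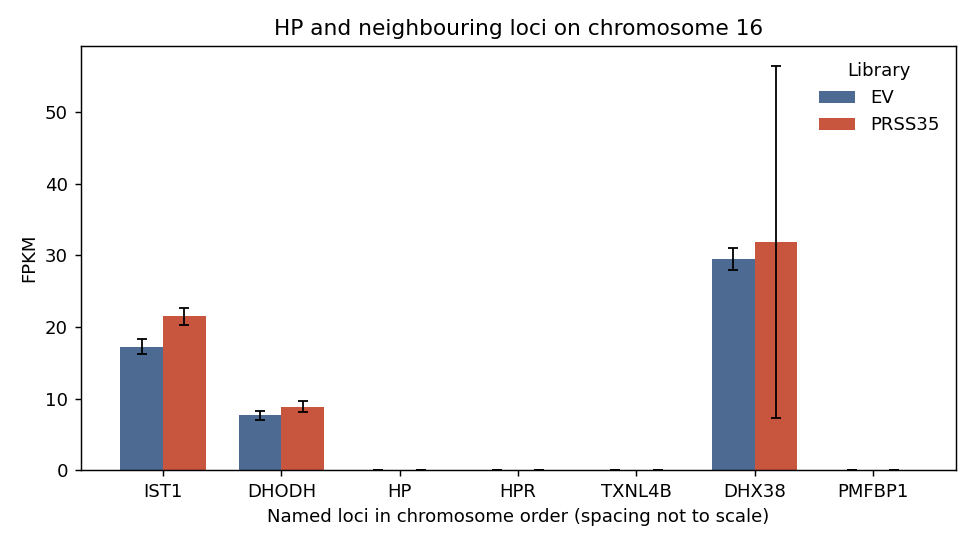
FPKM of HP and its neighbouring named loci on chromosome 16, in chromosome order and not spaced to scale, in the EV and PRSS35 libraries, with bars for the Cufflinks interval. HP, HPR, TXNL4B and PMFBP1 are listed at 0 in both libraries, between and beside loci with values such as DHODH (7.66 and 8.86) and DHX38 (29.5 and 31.9).

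LBP was the lowest of the loci with a value above 0, and CRP had none. LBP, on chromosome 20 from 36974814 to 37005653, had 0.216 FPKM (interval 0.0858 to 0.347) in EV and 0.118 (interval 0.0216 to 0.214) in PRSS35. Its interval widths correspond to 11 and 6 fragments, within 0.01 of whole numbers, and the intervals overlapped, so no difference was detectable at this depth. At LBP, 1 fragment was worth 0.0197 FPKM in EV and 0.0196 in PRSS35, a ratio of 0.999. CRP, on chromosome 1 from 159682079 to 159684379, is listed at 0 in both libraries.

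None of the 5 expressed loci was higher or lower by 2-fold, and none by 1.5-fold, in the values as deposited. With FPKM rescaled to an equal total, ORM1 (log2 change 1.15) and ORM2 (1.10) were higher by over 2-fold and the median log2 change was 0.77, when that of all expressed names was 0.69. In the deposited values, 1.89% of all 10133 expressed names were higher and 1.84% lower by 2-fold. The 0 of 5 members cannot be set apart from that background. The share of all expressed names beyond 2-fold after the rescaling was not computed, so ORM1 and ORM2 have no such background there. Intervals were apart at 1 locus that was higher in PRSS35 (ORM1) and at 1 that was lower (SAA2/SAA4). Over all expressed names, intervals were apart and higher in 24.7% and apart and lower in 14.3%, and the share among the acute-phase loci is near that background. For the 5 loci the median log2 change was 0.10, within a range of -0.36 to 0.46. Over all expressed names the median was 0.06, with quartiles of -0.10 and 0.22. A change at least as large in size as that of ORM1 was seen in 12.0% of expressed names, as that of ORM2 in 12.7%, as that of SAA2/SAA4 in 18.6% and as that of HPX in 21.4%.

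**Figure D3:**
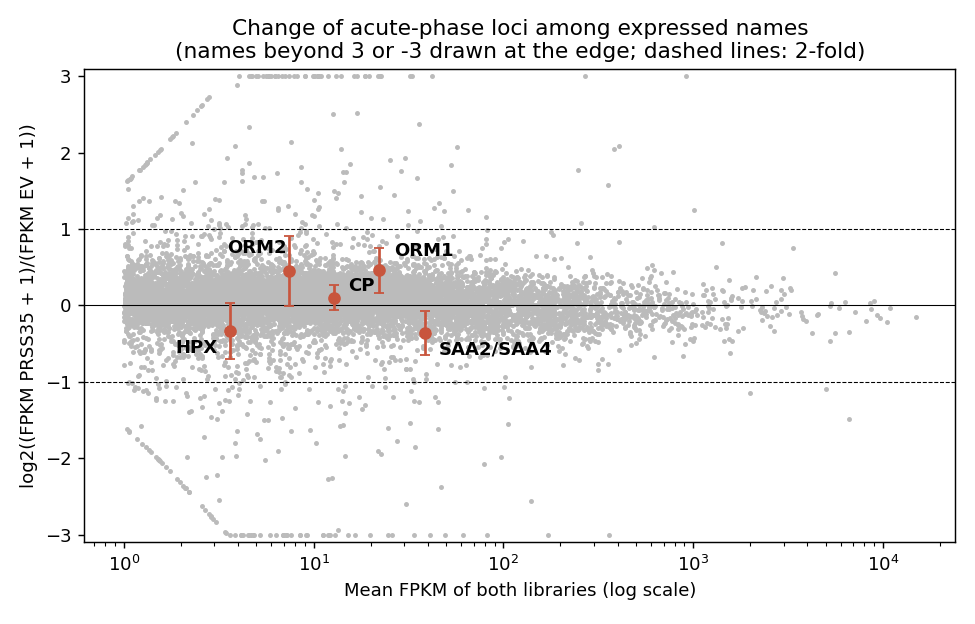
Log2 change against mean FPKM (log axis) for the 10133 expressed names (grey) and the 5 expressed acute-phase loci (red, with the range spanned by the Cufflinks intervals). All 5 lie inside the dashed 2-fold lines, ORM1 and ORM2 above 0 and HPX and SAA2/SAA4 below it. The latter pair would lie above 0 with FPKM rescaled to an equal total in both libraries, but below the median of all expressed names, then 0.69.

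Although single loci differed in opposite directions, the summed FPKM of the 5 expressed loci was 84.7 in EV and 84.6 in PRSS35, a ratio of 0.999. It became 1.64 with FPKM rescaled to an equal total, when the median log2 change of all expressed names moved from 0.06 to 0.69. The make-up of the summed FPKM differed. The serum amyloid A locus took 51.3% of it in EV and 39.7% in PRSS35, and both orosomucoids together took 29.2% and 40.9%. The ratio of SAA2/SAA4 to ORM1, in which any scaling of a whole library cancels, was 2.34 in EV and 1.30 in PRSS35. These are the loci with the lowest and the highest log2 change of the 5, so their ratio had to differ. Ratios between other expressed names were not computed as a background. The ratio of CP to HPX was 2.97 in EV and 4.30 in PRSS35.

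**Figure D4:**
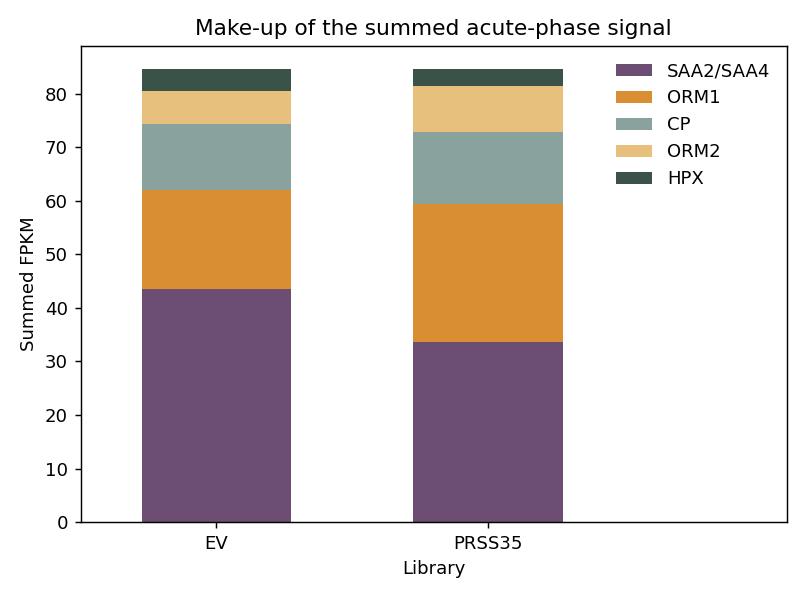
Summed FPKM of the 5 expressed acute-phase loci in the EV and PRSS35 libraries, stacked by locus. The stacks reach 84.7 and 84.6 (a ratio of 1.64 in place of 0.999 with FPKM rescaled to an equal total), with a smaller SAA2/SAA4 part and larger ORM1 and ORM2 parts in PRSS35. Under that rescaling the median log2 change of all expressed names was 0.69.

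A further list of genes, grouped as positive acute-phase proteins, was read out beside the members. Whether each of them rises in human liver was not checked. Of 22 listed genes, 8 were expressed, 0 of them higher or lower by 2-fold, and the median log2 change was -0.01. Of the 8, 2 were higher and 1 lower with intervals apart. SERPINA1, the inhibitor of neutrophil elastase, had 2528 FPKM (interval 2423 to 2633) in EV and 4239 (interval 4113 to 4365) in PRSS35, a log2 change of 0.75. Its value alone was 29.9 times the summed FPKM of the 5 acute-phase loci in EV and 50.1 times in PRSS35. The protease inhibitor A2M had a log2 change of 0.19 and the metallothionein MT2A of -0.17. Of 12 listed proteins that decline in the acute phase, 10 were expressed and 0 differed by 2-fold. Their median log2 change was 0.19, with 6 higher and 2 lower with intervals apart, beside 24.7% and 14.3% of all expressed names, not matched for level. The lower ones, named after their values were seen, were the lipoprotein genes APOA1 (-0.22) and APOA2 (-0.29). Both turned positive with FPKM rescaled to an equal total, below the median of all expressed names, then 0.69. The iron carrier TF (0.63), AHSG (0.58) and the corticosteroid carrier SERPINA6 (0.46) had the largest log2 changes of this list, and the genes with its highest mean FPKM over both libraries, AMBP and RBP4, had log2 changes of -0.01 and 0.17.

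The signalling genes upstream of the members were present in part. Of 16 genes of the interleukin-6 branch, 11 were expressed and 0 differed by 2-fold, with a median log2 change of 0.09. Of the 11, 2 were higher and 0 lower with intervals apart, beside 24.7% and 14.3% of all expressed names. IL6 itself, named after its value was seen, is listed at 0 in both libraries. The receptor gene IL6R had 5.25 FPKM (interval 4.87 to 5.64) in EV and 8.86 (interval 8.31 to 9.41) in PRSS35, but it was an assembled locus in PRSS35 and an annotated one in EV. STAT3 had 14.5 FPKM in EV and 17.6 in PRSS35 with intervals apart, and its feedback inhibitor SOCS3 had 3.14 and 4.01 with overlapping intervals. The kinase TYK2 (log2 change -0.03) and PIAS3 (-0.13) had the highest mean FPKM of this branch over both libraries. Of 15 genes of the interleukin-1 and TNF branch, 9 were expressed and 0 differed by 2-fold, with a median of 0.04. Of the 9, 1 was higher and 1 lower with intervals apart. The adaptor MYD88 had 1.66 FPKM in EV and 2.73 in PRSS35, and the NF-kB subunit RELA had 79.9 and 67.0. The inhibitor NFKBIA had a log2 change of -0.14.

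All 11 listed factors that bind acute-phase promoters were expressed, with a median log2 change of 0.20 and 0 beyond 2-fold. Of these, 7 were higher and 2 lower with intervals apart, beside 24.7% and 14.3% of all expressed names. Those shares are not matched for level or for the width of the intervals. CEBPD had 19.5 FPKM (interval 17.9 to 21.1) in EV and 26.1 (interval 24.2 to 27.9) in PRSS35, CEBPB had 93.8 and 108.0, and CEBPA 95.7 and 107.3. With FPKM rescaled to an equal total, every expressed gene of the lists named here had a log2 change above 0. The median of all expressed names was then 0.69. Among 12 receptors and partners, 4 were expressed, with a median log2 change of 0.05, 1 of them higher and 0 lower with intervals apart. Of these, HMOX1, which breaks down heme, had 102.9 and 97.8 FPKM, the alpha-globin gene HBA1 15.1 and 11.8, LRP1 5.62 and 6.44, and the iron exporter SLC40A1 2.71 and 3.18.

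**Figure D5:**
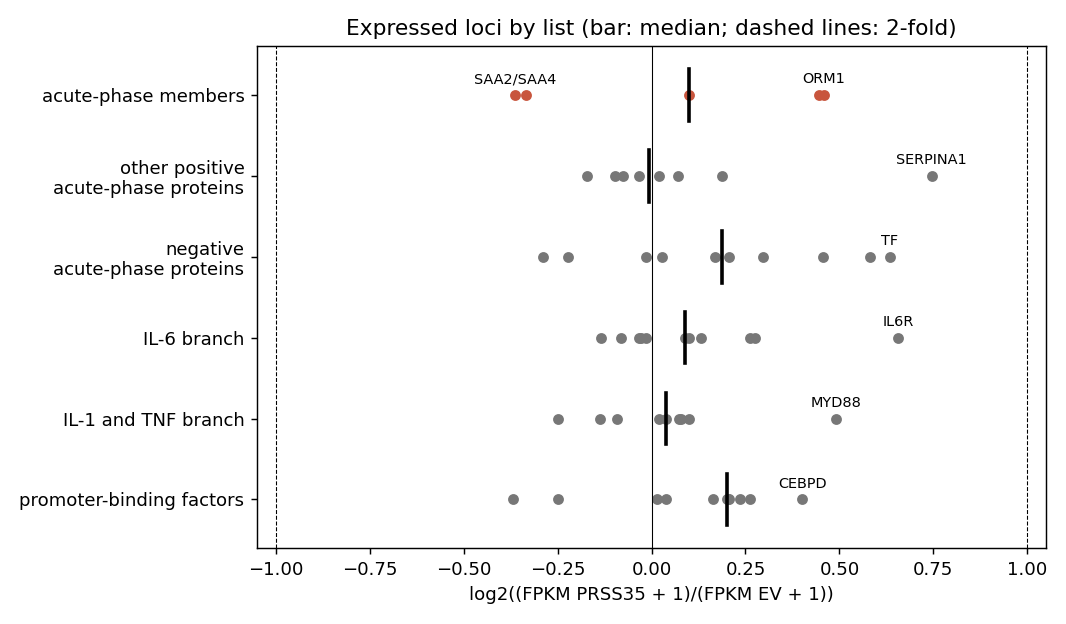
Log2 change of each expressed locus of the acute-phase members (red) and of 5 related lists (grey), with the median as a vertical bar, the highest locus of each list named and SAA2/SAA4 named among the members. No locus of any list passes the dashed 2-fold lines, and the medians run from -0.01 to 0.20. With FPKM rescaled to an equal total in both libraries all plotted changes would lie above 0, when the median of all expressed names would be 0.69.

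The 250 bases before the transcription start of CRP, listed at 0, and of ORM1, higher in PRSS35, are shown because the C/EBP factors named above bind promoters of this kind. RefSeq windows on GRCh38.p14 were matched for 4 of the 10 genes (CRP, SAA4, HPX and ORM1), and the windows printed are chr1:159714590-159714839 on the minus strand and chr9:114322848-114323097 on the plus strand. Capitals mark matches, on either strand, to the motifs searched.
CRP: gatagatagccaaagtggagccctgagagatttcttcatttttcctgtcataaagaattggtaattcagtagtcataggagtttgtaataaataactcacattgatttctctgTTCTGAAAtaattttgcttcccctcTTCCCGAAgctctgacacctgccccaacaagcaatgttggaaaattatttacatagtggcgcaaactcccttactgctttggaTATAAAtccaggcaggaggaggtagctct
ORM1: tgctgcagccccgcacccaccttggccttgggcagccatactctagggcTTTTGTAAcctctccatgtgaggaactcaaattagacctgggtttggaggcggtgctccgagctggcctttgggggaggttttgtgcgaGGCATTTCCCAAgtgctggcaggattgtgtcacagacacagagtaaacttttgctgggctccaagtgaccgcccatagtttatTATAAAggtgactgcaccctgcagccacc

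A C/EBP motif, TTNNGNAA, had 2 matches in CRP, 2 in ORM1, 1 in HPX and 6 in SAA4, and 33.2% of 34788 windows of the same length hold at least 1. The sequence TATAAA starts 29 bases before the transcription start in both CRP and ORM1, and 10.8% of windows hold it. An NF-kB motif (GGG, then 5 bases of any kind, then CC) had 1 match, in ORM1, where it overlaps a C/EBP match, and occurs in 54.4% of windows. The interleukin-6 response motif CTGGGA had 2 matches in HPX and occurs in 28.7% of windows. The STAT motif TTCNNNGAA had no match in the 4 windows and occurs in 6.57% of windows. Other spacings of the STAT motif were not searched. The CRP stretch TTCCCGAA, counted above as a C/EBP match, holds TTC and GAA at a shorter spacing. These matches describe letters and not binding.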

How the data were processed

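RNA from PLC cells carrying the empty vector (EV) or expressing PRSS35 was sequenced, 1 library per condition. Per the methods and the labels, the authors aligned reads to hg19 with TopHat2 2.1.0 and ran Cufflinks 2.2.1 (Cuffdiff in the processing notes). The labels list the fly build dm6 beside hg19, and the deposited loci of all 10 members overlap their genes on GRCh37. The annotation release and options are not given in the sources used here. The deposited values are FPKM per locus with lower and upper bounds, and loci were assembled in each library separately. No counts were used, and depth can be gauged only roughly, through the interval widths.

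Rows were matched by name, leaving out alternate haplotypes and unplaced contigs, and FPKM was summed over rows of a name. A joined locus was counted once. File starts, which count from 0, were raised by 1. Each change is the log2 of PRSS35 over EV after 1 FPKM was added to both, among names with a mean FPKM of at least 1, called at 2-fold. The fragments behind a value are taken from the interval, as the square of FPKM times 2 divided by the upper bound minus FPKM. This reads the interval as counting error alone, although it also reflects assignment. At DHX38 it gave 1453 in EV and 6.74 in PRSS35, at 29.5 and 31.9 FPKM, so these values are not fragment counts. Transcripts are GENCODE v44lift37 on GRCh37. From each related list, the 3 expressed genes with the largest change in size and the 2 with the highest mean were named, and 2 loci that this rule names are not reported here. The members and lists were chosen with earlier results of these data known. With 2 libraries no likeness of pattern between genes was measured. Tandem lysines in the encoded proteins were planned and not analysed here. Python 3.11.15, numpy 2.4.6, pandas 2.3.3 and matplotlib 3.10.9 were used. Alternatives were other pseudocounts, scalings, filters and thresholds, the highest row per name, and joined names left out.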

Additional observations from a re-analysis of the deposited data

How the results depend on the processing

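Under other pseudocounts (0.1 and 5 FPKM), median centring, scaling by the upper quartile and the highest row per name, 0 acute-phase loci differed by 2-fold and the median log2 change lay between 0.04 and 0.11. With no filter it was 0, as this adds LBP and the 3 loci listed at 0. It was 0.27 with joined names left out and 0.27 with a mean FPKM of at least 5, as each leaves 4 loci. With FPKM rescaled to an equal total, the median was 0.77, when that of all expressed names was 0.69 in place of 0.06. There 2 loci, ORM1 (1.15) and ORM2 (1.10), were higher by 2-fold, and the share of all names so called was not computed. In that setting SAA2/SAA4 (0.33) and HPX (0.23) turned positive and stayed below the median name. FPKM summed over all loci, which that setting makes equal, was 2.469e+06 in EV and 1.509e+06 in PRSS35. At LBP, 1 fragment was worth nearly the same deposited FPKM in both libraries (a ratio of 0.999), which that setting would make unequal. Which scaling suits these libraries was not tested. The related lists were recomputed under the scalings after seeing the data: with equal totals their expressed genes were all above 0 and SERPINA1 reached 1.46. In the other settings no acute-phase locus changed sign. No paired analysis was possible because the groups hold only 1 library each, which also leaves no library to omit. The interval widths of LBP, at 11 and 6 fragments, limit what can be said of its level.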
